A study of Rattus norvegicus with 12 samples.

Results

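The platelet-derived growth factor (PDGF) genes were examined in rat PAC1 cells, a line of pulmonary artery smooth muscle cells, upon depletion of 3 RNA-binding proteins that regulate splicing. They comprise the ligand genes Pdgfa, Pdgfb, Pdgfc and Pdgfd and the receptor genes Pdgfra and Pdgfrb, taken by symbol from the count table. All 6 were found among 33294 gene symbols, and all 6 passed the filter on low counts that left 18438 genes for testing. The 12 libraries form 4 groups of 3. Cells of the control group received the control siRNA called C2, and the other groups received an siRNA against RBPMS (RBPMS-KD in the labels), RBFOX2 (FOX2-KD) or QKI (QKI-KD, gene symbol Qk). Every group was transfected with 90 pmol of siRNA, again 24 h later, and harvested a further 48 h later per the labels, whereas the study's methods give longer intervals. All groups are the same cell line, each target was depleted with a single siRNA sequence, and no library represents untransfected cells. The study describes these knockdowns in PAC1 cells cultured to favour the differentiated state. It reports that the control cells of this experiment were less differentiated than those of its other RNA-seq experiment.

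PDGFs are secreted dimers that activate a pair of receptor tyrosine kinases. PDGF-A and PDGF-B leave the cell as active growth factors, whereas PDGF-C and PDGF-D carry a CUB domain that must be cut off by a protease before they can bind. PDGF-A and PDGF-C act mainly through PDGFRα, PDGF-D mainly through PDGFRβ, and PDGF-B binds both receptors. In the vessel wall PDGFRβ is the main receptor of smooth muscle cells and pericytes, PDGFRα is better known from fibroblasts, and PDGF-BB is a classical stimulus that turns contractile smooth muscle cells to a proliferating and migrating state.

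The treatments are given by the sense strands of the siRNAs listed in the study's oligonucleotide sheet, which are shown because the groups are named by them.
C2: aagguccggcucccccaaaug
RBPMS: ggcggcaaagccgagaaggcgaaca
RBFOX2: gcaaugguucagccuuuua
QK: ggacuuacagcuaaacaac

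Each siRNA lowered its target in all 3 libraries of its group. Levels below are CPM, the usual depth-scaled counts, on TMM-adjusted library totals, and errors are the SD of 3 libraries. Rbpms was at 6.96, 7.11 and 7.54 CPM in RBPMS knockdown against 38.9 to 43.7 CPM in control, Rbfox2 at 36.2 to 37.9 CPM in RBFOX2 knockdown against 152 to 159 CPM, and Qk at 26.0 to 27.3 CPM in QKI knockdown against 229 to 242 CPM. The targets also moved outside their own knockdown, with a log2 fold change for Rbpms of −0.81 in RBFOX2 knockdown and −0.49 in QKI knockdown, and for Qk of −0.42 in RBFOX2 knockdown (edgeR adjusted p of 2.10e-09, 9.32e-07 and 1.70e-08). The remaining changes were smaller. Qk changed by 0.18 in RBPMS knockdown, and Rbfox2 by −0.12 in RBPMS and −0.15 in QKI knockdown (edgeR adjusted p of 2.97e-04, 0.0193 and 0.00428).

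Library totals lay between 111 and 152 M counts. The 8 smooth muscle markers (Acta2, Tagln, Myh11, Cnn1, Smtn, Myocd, Lmod1 and Des) summed to 1872 to 1918 CPM in control, 984 to 1076 CPM in RBPMS knockdown, 737 to 823 CPM in RBFOX2 knockdown and 1270 to 1367 CPM in QKI knockdown. These sums are mostly Acta2 and Tagln (990 and 687 CPM in control) and do not describe every marker, since 5, 4 and 4 of the 8 were lower and 3, 2 and 3 higher in RBPMS, RBFOX2 and QKI knockdown. Among those higher were Myh11 in all 3 knockdowns and Myocd and Des in RBPMS and QKI knockdown, and Tagln did not pass in QKI knockdown. The pericyte markers Rgs5, Kcnj8 and Abcc9 had at most 12, 4 and 15 counts in any control library. Cspg4 and Notch3, of the same list, were well expressed, with control means of 385 and 75.6 CPM. Endothelial markers summed to 8.73 to 10.8 CPM and leukocyte markers to 1.46 to 1.56 CPM in control. The 5 fibroblast markers summed to 7336 to 8469 CPM in control and to between 13942 and 17073 CPM in the knockdowns, nearly all of it Col1a1. Lum and Thy1 fell in all 3 knockdowns and Dcn in RBPMS and QKI knockdown, while Dpt, with at most 19 counts in any library, passed higher in RBFOX2 and QKI knockdown. In these bulk libraries, fewer cells of a type and less RNA per cell cannot be told apart. The part of these markers in the results below was not tested. A further property of the controls bears on small changes, since control 3 was the highest control library for all 6 PDGF genes and for 36.7% of all genes tested. The library furthest from its partners was RBPMS-KD 2. Its counts differed from those of RBPMS-KD 1 and 3 by a chi-square per degree of freedom of 57.8 and 45.6. That value was 9.27 between RBPMS-KD 1 and 3 and 6.09 to 21.5 between control libraries.

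QKI knockdown moved the most PDGF genes. A gene is called higher or lower here at an adjusted p under 0.05 in edgeR's quasi-likelihood test, adjusted over all genes tested, and is said to pass the 2-fold rule of the study when its log2 fold change also exceeds 1 in size. In QKI knockdown all 6 genes passed, 5 lower (Pdgfa, Pdgfb, Pdgfd, Pdgfra and Pdgfrb) and 1 higher (Pdgfc), where 66.9% of all genes passed, 34% lower and 32.9% higher. The 3 ligand genes Pdgfa, Pdgfb and Pdgfd passed the 2-fold rule, all lower, a rule that 17.5% of all genes met and 9.24% met with a fall.

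In RBPMS knockdown 5 of 6 passed, with Pdgfa, Pdgfb and Pdgfd lower and Pdgfc and Pdgfrb higher, against 59.4% of all genes (29% lower and 30.4% higher). Pdgfb and Pdgfd passed the 2-fold rule with a fall, against 9.66% of genes in either direction and 4.5% with a fall. In RBFOX2 knockdown 3 of 6 passed, Pdgfa lower and Pdgfc and Pdgfra higher, against 60.3% of genes (30.1% in each direction), and 0 passed the 2-fold rule that 11.7% of genes met (4.73% with a fall). The members' median log2 fold change was −0.19, 0.27 and −1.21 in RBPMS, RBFOX2 and QKI knockdown, beside 0.0085, 0.015 and 0.0070 over all genes tested. The share of members that passed was close to that of all genes in RBFOX2 knockdown. Genes that averaged 5 CPM or more, as most members did, passed more often, at 75.7%, 74.8% and 80.3% in RBPMS, RBFOX2 and QKI knockdown. With 6 genes the counts are read as a description. The 3 comparisons share the control libraries.

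**Figure D1:**
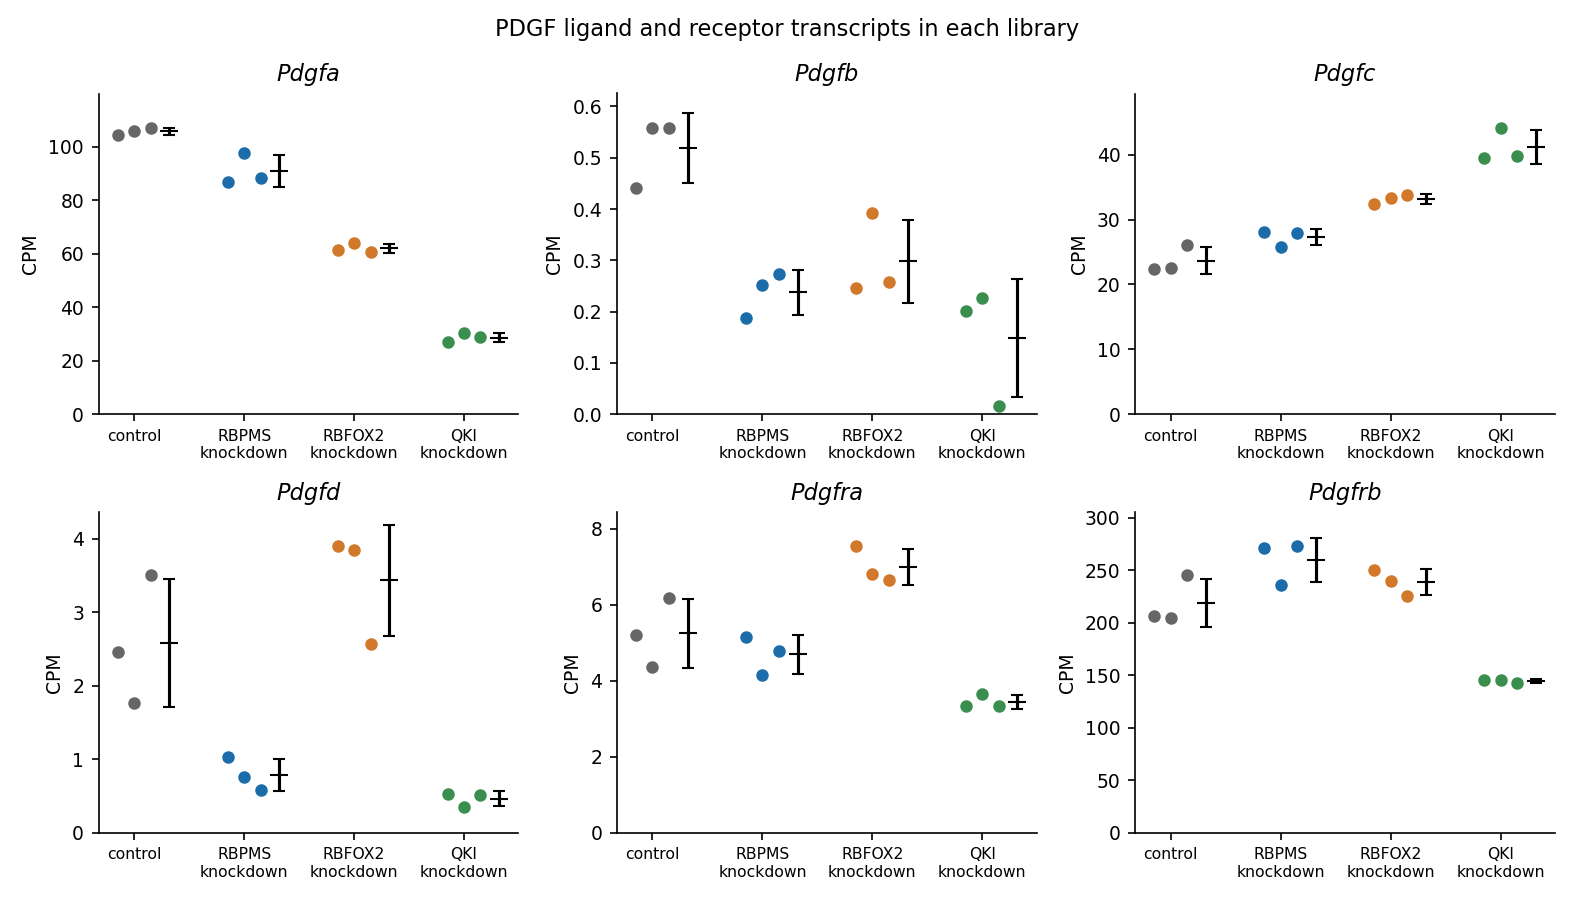
CPM of the 6 PDGF genes (vertical axes, each from 0) in the 12 libraries, grouped by siRNA. Points are libraries, and the bar beside them is the mean with the SD of 3. Pdgfa and Pdgfc move in opposite directions over the groups, with QKI knockdown the lowest for Pdgfa at 27.1 to 30.2 CPM and the highest for Pdgfc at 39.5 to 44.1 CPM.

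Pdgfa, the gene of the PDGF-A chain, was at 105, 106 and 107 CPM in the 3 control libraries. It was at 86.9, 97.7 and 88.3 CPM in RBPMS knockdown, at 61.5, 63.9 and 60.7 CPM in RBFOX2 knockdown and at 27.1, 30.2 and 28.8 CPM in QKI knockdown. The 4 groups were separate, in the order control, RBPMS, RBFOX2 and QKI knockdown from high to low. Against control, the log2 fold change was −0.22 (SE 0.046) in RBPMS knockdown, −0.77 (SE 0.047) in RBFOX2 knockdown and −1.88 (SE 0.049) in QKI knockdown, with edgeR adjusted p of 5.75e-04, 2.17e-10 and 1.65e-15. The neighbours in this order also differed from each other, with log2 fold changes of −0.55 between RBFOX2 and RBPMS knockdown and −1.11 between QKI and RBFOX2 knockdown (edgeR adjusted p of 2.82e-08 and 1.47e-12). In QKI knockdown the level was 3.69 times lower than in control, with a 95% interval of the log2 fold change from −1.99 to −1.78. Of the 10707 genes that averaged 5 CPM or more, 164 (1.53%) fell further there.

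Pdgfc, which encodes the CUB-domain ligand of the same receptor, went the other way. It was at 22.4, 22.6 and 26.0 CPM in control, at 28.1, 25.8 and 28.0 CPM after RBPMS depletion, at 32.4, 33.3 and 33.9 CPM after RBFOX2 depletion and at 39.5, 44.1 and 39.8 CPM after QKI depletion. RBPMS knockdown overlapped control through control 3, and the other 2 groups lay above both. The log2 fold changes against control were 0.20 (SE 0.060), 0.49 (SE 0.059) and 0.80 (SE 0.059), with edgeR adjusted p of 0.00692, 1.51e-06 and 1.91e-09. RBFOX2 knockdown exceeded RBPMS knockdown by a log2 fold change of 0.28 and QKI knockdown exceeded RBFOX2 knockdown by 0.31 (adjusted p of 5.66e-04 and 1.49e-04), so the order of the groups for Pdgfc was the reverse of that for Pdgfa.

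The ratio of Pdgfa to Pdgfc counts within a library, which needs no scaling between libraries, followed from these movements. It was 4.67, 4.69 and 4.11 in control, 3.09, 3.78 and 3.16 after RBPMS depletion, 1.90, 1.92 and 1.79 after RBFOX2 depletion and 0.686, 0.685 and 0.722 after QKI depletion. The groups did not overlap, and the geometric mean of the ratio was 6.43 times lower in QKI knockdown than in control. Counts depend on transcript length, so a ratio below 1 does not by itself say which transcript was more abundant. Its change between groups does not depend on length as long as each gene keeps the same mix of transcript forms, which was not tested. The exact permutation test of 3 libraries against 3 gave its smallest possible p, 0.1, for each of the 3 knockdowns.

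Pdgfd encodes the CUB-domain ligand of PDGFRβ, and it showed the deepest fall of the 6 genes in both RBPMS and QKI knockdown. It had 302, 264 and 477 counts in control (2.47, 1.77 and 3.50 CPM), 109, 102 and 64 counts in RBPMS knockdown (1.02, 0.754 and 0.582 CPM), 539, 540 and 349 counts in RBFOX2 knockdown (3.90, 3.84 and 2.56 CPM) and 74, 40 and 63 counts in QKI knockdown (0.534, 0.348 and 0.508 CPM). All RBPMS and QKI knockdown libraries lay below all control libraries, and RBFOX2 knockdown overlapped control. The log2 fold change was −1.71 (SE 0.25) in RBPMS knockdown and −2.46 (SE 0.27) in QKI knockdown (edgeR adjusted p of 1.46e-05 and 2.89e-07), falls of 3.28 and 5.51 times. In RBFOX2 knockdown the log2 fold change was 0.42 (SE 0.22, adjusted p 0.112), with a 95% interval from −0.05 to 0.88. Without control 3 it became 0.70 and passed (adjusted p 0.0105), and without RBFOX2-KD 3, the lowest library of its group, 0.58 (adjusted p 0.0411).

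The difference between the knockdowns was tested directly for Pdgfd. Its level was 4.38 times higher in RBFOX2 than in RBPMS knockdown (log2 fold change 2.13, SE 0.25, edgeR adjusted p 1.32e-06) and 7.34 times lower in QKI than in RBFOX2 knockdown (log2 fold change −2.88, SE 0.26, adjusted p 3.29e-08). QKI and RBPMS knockdown were neighbours that differed less, by −0.75 (SE 0.30, adjusted p 0.0405). That last call was lost without RBPMS-KD 1 (−0.53), without QKI-KD 1 (−0.86), QKI-KD 2 (−0.58) or QKI-KD 3 (−0.81), and with library totals only (−0.62). Within libraries, there were 7.43 to 12.7 Pdgfc counts per Pdgfd count in control, 27.4 to 48.0 in RBPMS knockdown, 8.32 to 13.2 in RBFOX2 knockdown and 73.9 to 127 in QKI knockdown.

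Pdgfb, the gene of the PDGF-B chain, had few counts in these cells. It had 54, 83 and 76 counts in control, 20, 34 and 30 in the RBPMS group, 34, 55 and 35 in the RBFOX2 group and 28, 26 and 2 in the QKI group. The group means were 0.519 ± 0.067 CPM (SD, n = 3), 0.237 ± 0.044, 0.298 ± 0.081 and 0.148 ± 0.12 CPM. Each knockdown library lay below each control library, but QKI-KD 3 stood far below the other 2 of its group. The log2 fold changes were −1.12 (SE 0.42, adjusted p 0.0285) in RBPMS knockdown, −0.80 (SE 0.40, adjusted p 0.0954) in RBFOX2 knockdown and −1.80 (SE 0.44, adjusted p 0.00162) in QKI knockdown by edgeR. Without QKI-KD 3 the last value was −1.28 and still passed. The call in RBPMS knockdown was lost without control 2 (−1.07), without control 3 (−1.07) or without RBPMS-KD 1 (−0.99). The knockdowns did not pass against each other, with adjusted p of 0.550 for RBFOX2 against RBPMS, 0.232 for QKI against RBPMS and 0.0620 for QKI against RBFOX2 knockdown. The last of these (95% interval of the log2 fold change −1.98 to −0.034) passed without QKI-KD 1 (−1.32), without QKI-KD 2 (−1.39), without a filter on low counts (−1.01), in DESeq2 (adjusted p 0.0412) and with halved counts (−1.01), and was −0.47 without QKI-KD 3 (adjusted p 0.199).

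**Figure D2:**
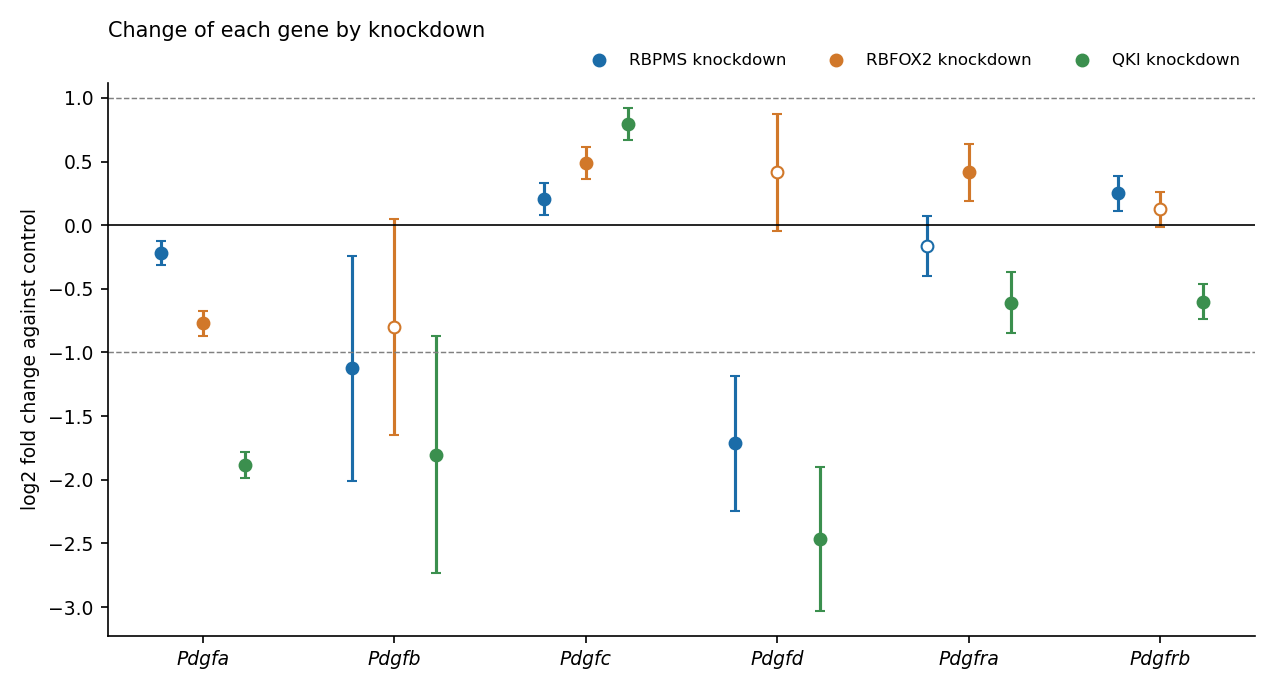
Log2 fold change against control (vertical axis) of the 6 PDGF genes in RBPMS, RBFOX2 and QKI knockdown, with bars for the 95% interval and dashed lines at a log2 fold change of 1 in each direction. Filled points passed an adjusted p under 0.05, open points did not. Pdgfd lies at −1.71 and −2.46 in RBPMS and QKI knockdown and above 0 in RBFOX2 knockdown. The intervals are widest for Pdgfb and Pdgfd, the genes with the lowest levels. Pdgfd also spread between libraries of a group, with 264 to 477 counts in control.

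Both receptor genes fell in QKI knockdown, each by less than the 2-fold rule asks. Pdgfrb, the gene of PDGFRβ, was at 207, 204 and 245 CPM in control. It was at 272, 236 and 273 CPM when RBPMS was depleted, at 250, 240 and 226 CPM when RBFOX2 was, and at 145, 146 and 142 CPM when QKI was. QKI knockdown lay below every other library, and the other 3 groups overlapped. The log2 fold change in QKI knockdown was −0.60 (SE 0.065, edgeR adjusted p 2.82e-07), a fall of 1.52 times. In RBPMS knockdown it was 0.25 (SE 0.065, adjusted p 0.00303), a call that was not past the threshold in the authors' normalised table (0.20), and in RBFOX2 knockdown 0.13 (SE 0.065, adjusted p 0.104), which passed without control 3 (0.21) and with library totals only (0.18). Between RBFOX2 and RBPMS knockdown Pdgfrb did not pass (log2 fold change −0.12, 95% interval −0.26 to 0.013, adjusted p 0.114), but it did without RBPMS-KD 2 (−0.19, adjusted p 0.00679) and without a filter on low counts (−0.12, adjusted p 0.0193).

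Pdgfra, the gene of PDGFRα, was at 5.21, 4.37 and 6.19 CPM in control. The RBPMS group had 5.16, 4.15 and 4.78 CPM, the RBFOX2 group 7.54, 6.80 and 6.66 CPM and the QKI group 3.34, 3.65 and 3.34 CPM. RBFOX2 knockdown was the highest group and QKI knockdown the lowest, neither overlapping control, while control and RBPMS knockdown overlapped. The log2 fold changes were 0.41 (SE 0.11, edgeR adjusted p 0.00300) in RBFOX2 knockdown and −0.61 (SE 0.11, adjusted p 1.31e-04) in QKI knockdown. In RBPMS knockdown it was −0.17 (SE 0.11, adjusted p 0.215), with a 95% interval from −0.40 to 0.069. That value depended on the controls, being −0.29 and past the threshold without control 2 (adjusted p 0.0276) and −0.03 without control 3 (adjusted p 0.827). RBFOX2 knockdown exceeded RBPMS knockdown by 0.58 and QKI knockdown by 1.02 (adjusted p of 2.24e-04 and 2.86e-07).

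The balance of the receptors was compared by the ratio of Pdgfrb to Pdgfra counts in each library. It was 39.6, 46.8 and 39.6 in control, 52.6, 56.9 and 57.1 in the RBPMS group, 33.2, 35.3 and 33.9 in the RBFOX2 group and 43.5, 39.9 and 42.6 in the QKI group. The ratio lay above control in RBPMS knockdown (1.33 times), below it in RBFOX2 knockdown (1.23 times lower) and overlapped it in QKI knockdown, where both receptor transcripts had fallen. The exact permutation p was 0.1, the smallest possible, for the first and second and 1 for QKI knockdown.

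**Figure D3:**
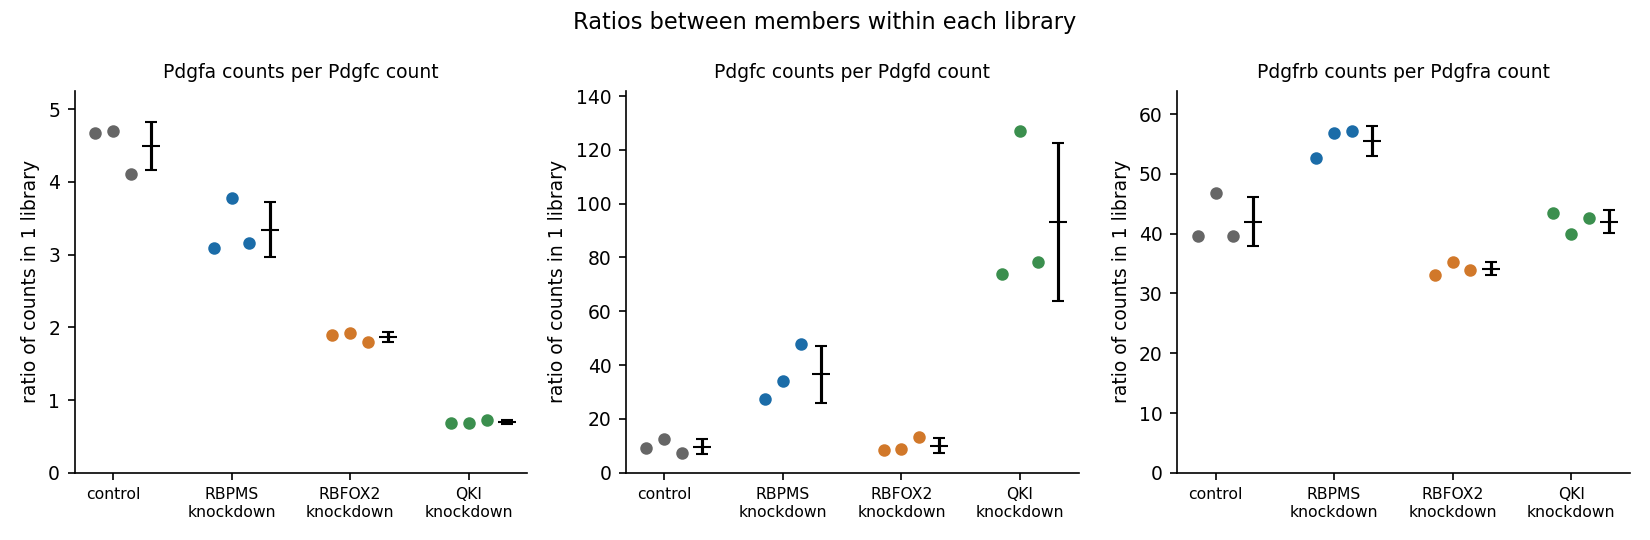
Ratios of raw counts within each library (vertical axes, each from 0) for Pdgfa per Pdgfc, Pdgfc per Pdgfd and Pdgfrb per Pdgfra, by group. Points are libraries and bars the mean with the SD of 3. Pdgfa per Pdgfc falls from 4.11 to 4.69 in control to 0.685 to 0.722 in QKI knockdown, while Pdgfrb per Pdgfra in QKI knockdown stays within 39.9 to 43.5.

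The libraries of 3 of 6 genes in RBPMS knockdown, 4 of 6 in RBFOX2 knockdown and 6 of 6 in QKI knockdown did not overlap those of control, where 61.7%, 68.6% and 72.3% of all genes tested had libraries that did not overlap control. The knockdowns were also compared with each other for all 6 genes. Between RBFOX2 and RBPMS knockdown 4 of 6 passed (56.7% of all genes), between QKI and RBPMS knockdown 5 of 6 (61%) and between QKI and RBFOX2 knockdown 5 of 6 (68.5%). Between QKI and RBFOX2 knockdown 4 of these 5 were lower in QKI knockdown and Pdgfc was higher.

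Sequences upstream of the ligand genes are shown for Pdgfa, Pdgfc and Pdgfd, the better-counted ligand genes. Of these, Pdgfa and Pdgfd fell and Pdgfc rose in QKI knockdown. RefSeq's table for the assembly GRCr8, which is not the authors' build, gives a promoter for 5 of the 6 members, from which the 250 bases before the gene start are printed 5′ to 3′. Capitals mark the GC box (GGGCGG), bound by Sp1-type factors, and the core of the cAMP response element (CRE core, TGACG), on either strand. Pdgfa lies at chr12:20759116-20759365 on the plus strand, Pdgfc at chr2:168614918-168615167 on the plus strand and Pdgfd at chr8:11773258-11773507 on the plus strand.
Pdgfa: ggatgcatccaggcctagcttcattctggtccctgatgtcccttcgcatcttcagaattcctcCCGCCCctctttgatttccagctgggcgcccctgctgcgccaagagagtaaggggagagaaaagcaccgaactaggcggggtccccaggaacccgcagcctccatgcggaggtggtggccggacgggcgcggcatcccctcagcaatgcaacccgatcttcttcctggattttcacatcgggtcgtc
Pdgfc: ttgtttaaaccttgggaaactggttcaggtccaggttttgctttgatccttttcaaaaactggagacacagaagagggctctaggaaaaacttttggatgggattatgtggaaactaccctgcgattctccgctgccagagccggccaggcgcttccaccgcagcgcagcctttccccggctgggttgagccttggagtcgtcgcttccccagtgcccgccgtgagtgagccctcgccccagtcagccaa
Pdgfd: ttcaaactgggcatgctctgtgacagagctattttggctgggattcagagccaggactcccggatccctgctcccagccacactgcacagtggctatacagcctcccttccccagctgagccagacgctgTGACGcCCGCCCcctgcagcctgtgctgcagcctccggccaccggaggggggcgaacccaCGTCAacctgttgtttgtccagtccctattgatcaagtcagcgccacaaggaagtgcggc

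Pdgfa and Pdgfd each held 1 GC box in this window, as did 30.5% of 33465 upstream sequences of the same length, and Pdgfc held 0. Pdgfd held 2 CRE cores, a motif found in 18.2% of upstream sequences, and Pdgfa and Pdgfc held 0. The share of G and C was 60.8%, 56% and 61.6% for Pdgfa, Pdgfc and Pdgfd. An E-box (CANNTG, in 65.5% of upstream sequences) was found once each in Pdgfa and Pdgfd and not in Pdgfc. The AP-1 site (TGANTCA) and the TATA box (TATAAA), in 6.34% and 12.9% of upstream sequences, were also searched and were in 0 of these 3 windows. In the windows not printed, Pdgfb held 1 GC box and 0 E-boxes, and Pdgfra held 0 GC boxes, 1 E-box and 1 AP-1 site. Neither held a CRE core or a TATA box. Pdgfb and Pdgfra were also lower in QKI knockdown, and a link between motifs and changes was not tested. These matches describe letters in the window, not bound sites.

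Genes with the most similar pattern were named by the Pearson correlation of log2 CPM over the 12 libraries among the 10039 other genes with a named symbol and a mean of at least 5 CPM (10040 for Pdgfd), as a description without a test. The 12 points are 4 groups of 3 libraries and share the same depths. For Pdgfa these were Rab12 (r of 0.994), Fibin (0.993) and Slc29a1 (0.993), of which Slc29a1, the equilibrative nucleoside transporter ENT1, had log2 fold changes of −0.11, −0.81 and −2.40, in the order RBPMS, RBFOX2, QKI knockdown. For Pdgfc they were Emsy (0.983), Cul7 (0.983) and Arhgap31 (0.980), and Cul7, a cullin of ubiquitin ligases, had 0.33, 0.74 and 1.34. For Pdgfd they were Uggt2 (0.974), Arid4b (0.974) and Ppp1r3c (0.972), and of these Ppp1r3c, a glycogen-targeting subunit of protein phosphatase 1, had −1.30, 0.40 and −1.82, while Uggt2 had −0.37, 0.12 and −0.54. For Pdgfra they were Atxn1 (0.972), Invs (0.969) and a gene listed as NEWGENE_1310139 (0.969). For Pdgfrb they were Mta1 (0.986), Snai2 (0.985), a transcription factor of mesenchymal cells, and Vcan (0.984), the gene of the matrix proteoglycan versican.

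The other genes of the pathway were taken from 7 lists with 65 genes, of which 63 were tested. In RBPMS, RBFOX2 and QKI knockdown 48, 48 and 53 of them passed, with 21, 23 and 19 higher and 27, 25 and 34 lower. Most of these genes are well expressed, and well-expressed genes pass more often, so the comparison was repeated among genes that averaged 5 CPM or more. There 46, 46 and 50 of 60 list genes passed (76.7%, 76.7% and 83.3%), against 75.7%, 74.8% and 80.3% of 10707 genes, shares close to this background. The counts of the single lists below are to be read against the same shares. The median log2 fold change over the 63 genes was 0.017, −0.031 and −0.16.

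The proteases that process the ligands fell in part. Plat encodes tissue plasminogen activator, which cleaves PDGF-C, and fell by 1.20, 0.71 and 0.93 (log2, RBPMS, RBFOX2 and QKI knockdown in this order here and below). St14 encodes matriptase, which can cleave PDGF-D, and fell by 1.11, 0.91 and 1.52. Furin, the gene of a proprotein convertase that trims PDGF-A and PDGF-B, fell by 0.48 and 0.41 in RBPMS and RBFOX2 knockdown and rose by 0.30 in QKI knockdown. Plau, the gene of urokinase, had 7 to 28 counts in control libraries and 60 to 124 after QKI depletion (log2 fold change 2.29). Of the 4 genes, 3, 3 and 4 passed.

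Genes of co-receptors and ligand-binding proteins were lower in RBPMS and QKI knockdown, 4 of 4 in each, and in RBFOX2 knockdown 2 were higher and 1 lower. Of all genes tested 29%, 30.1% and 34% were lower in RBPMS, RBFOX2 and QKI knockdown and 30.4%, 30.1% and 32.9% higher, and 4 genes are too few to set apart from these shares. Nrp1, the neuropilin that serves as a co-receptor, changed by −1.01, −0.20 and −1.24, and Lrp1, an endocytic receptor that associates with PDGFRβ, by −0.40, 0.29 and −0.66. Pdgfrl, the gene of a receptor-like protein, changed by −0.58, 0.30 and −1.50. Sparc, the gene of a matrix protein that binds PDGF-B, changed by −0.19 and −0.84 in RBPMS and QKI knockdown and did not pass in RBFOX2 knockdown (0.017).

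**Figure D4:**
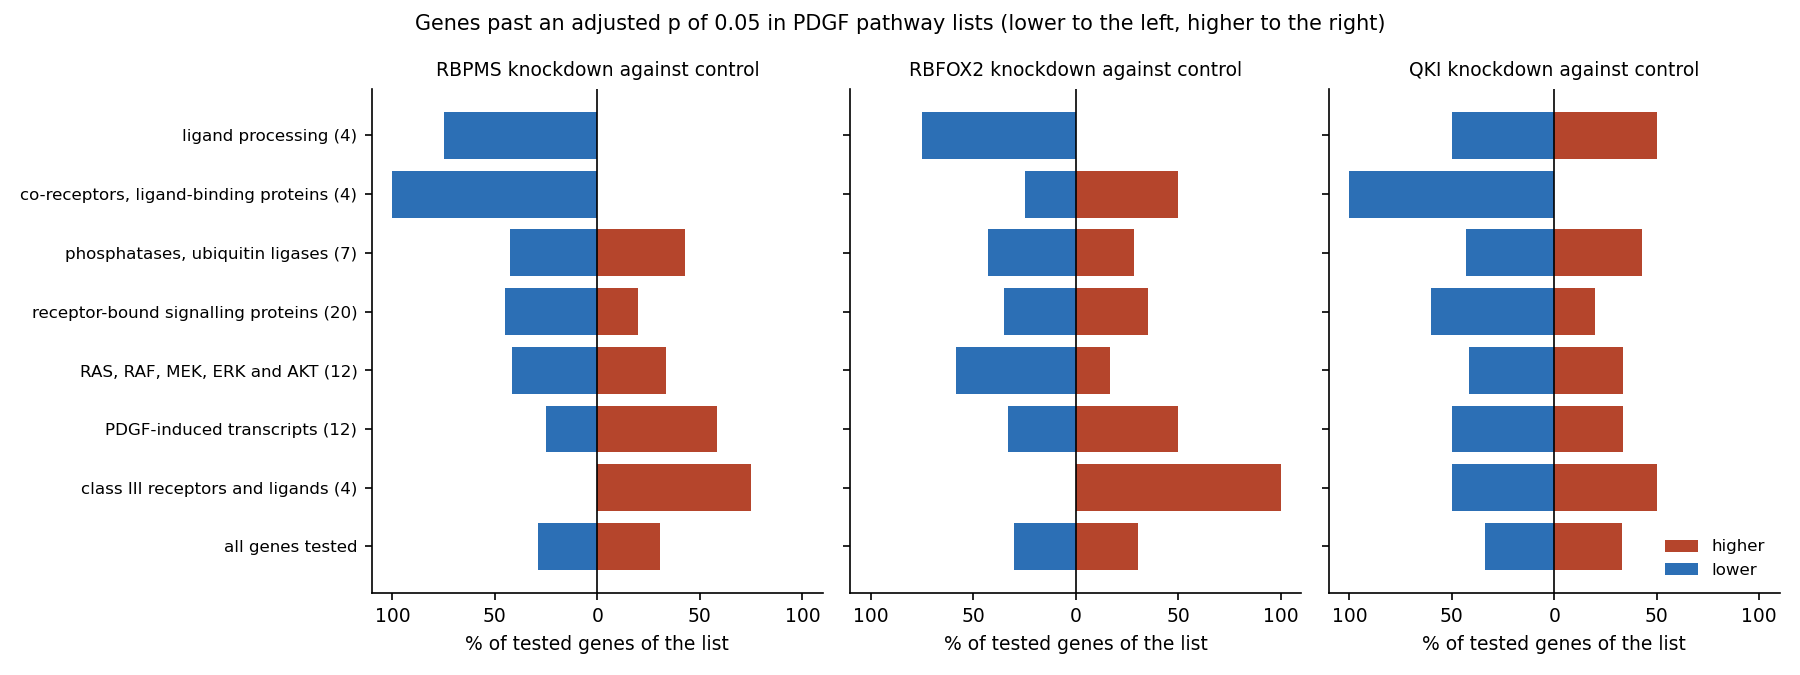
Share of the tested genes of each PDGF pathway list (number in brackets) that passed an adjusted p under 0.05 against control, lower to the left and higher to the right on the horizontal axis, for each knockdown. The lowest bar gives all genes tested. The 4 co-receptor and ligand-binding genes were all lower in RBPMS and QKI knockdown, and lists of 4 genes move in steps of 25%.

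Of 20 genes for proteins that bind the activated receptors or their adaptors, 13, 14 and 16 passed in RBPMS, RBFOX2 and QKI knockdown. The 2-fold rule was passed by 0, 0 and 2 of them, both lower, where 9.66%, 11.7% and 17.5% of all genes met it. These were Rasa1, the RAS GTPase-activating protein that binds PDGFRβ, with a log2 fold change of −1.42, and Sos2, a RAS exchange factor, with −1.13. Pik3ca, the gene of the catalytic subunit p110α, rose by 0.69 and 0.82 in RBPMS and RBFOX2 knockdown and changed by −0.10 in QKI knockdown. Of 7 phosphatase and ubiquitin ligase genes, 6, 5 and 6 passed and 0 passed the 2-fold rule in any knockdown, the furthest being Ptpn1 (0.65, 0.55 and 0.18), the gene of the phosphatase PTP1B. Cbl, a ubiquitin ligase for activated receptors, changed by −0.55 in QKI knockdown, and Ptprj by 0.56.

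Of 12 RAS, RAF, MEK, ERK and AKT genes 9 passed in each knockdown. Mapk3, which encodes ERK1, rose by 0.97, 1.00 and 0.74, Nras fell by 1.07 in RBFOX2 knockdown, and Map2k2, which encodes MEK2, fell by 0.59 in QKI knockdown. Transcripts that PDGF induces in cultured cells went in different directions. Of 12, 10 passed in each knockdown, with 7, 6 and 4 higher and 3, 4 and 6 lower. The 2-fold rule was passed by 6, 2 and 4 of 12, where 9.66%, 11.7% and 17.5% of all genes tested met it. Ccl2, a chemokine first known as a PDGF-induced gene, rose by 2.49, 0.86 and 1.25 and Ier3 by 1.41 and 0.92 in RBPMS and QKI knockdown. Ccnd1, the gene of cyclin D1, rose by 0.23 and 0.30 in RBPMS and RBFOX2 knockdown and fell by 2.23 in QKI knockdown. The median of this list was 0.21, 0.15 and −0.14.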

How the data were processed

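RNA was measured in 12 poly(A) libraries of PAC1 cells. The authors subsampled reads with seqtk, aligned them with STAR to mRatBN7.2 and counted them per gene with featureCounts. The submitters' processing notes list STAR 2.5.2a and the study's methods a later version. The methods describe subsampling to a common depth, which the unequal totals of the count table do not show. The deposited count table was used for all main results, and the deposited noise-filtered, quantile-normalised signal table only as an alternative. Of counts from 1 to 19, 68.1% were even, and how paired reads and strand were counted is not given in the sources used here, so counts halved were another alternative. Genes were filtered with filterByExpr, scaled with TMM and tested with edgeR 4.0.16 quasi-likelihood fits (R 4.3.3) on all 12 libraries with 1 term per group, adjusting p over 18438 genes by Benjamini-Hochberg. SE and 95% intervals come from that fit. The 6 genes and 7 pathway lists were chosen with earlier results of these data known. From each list the 3 genes of at least 5 CPM with the largest changes are named, or all genes of lists of 4. Alternatives were RLE or total scaling, other filters, DESeq2 1.42.0, limma 3.58.1 on log2 of the signal plus 1 or 10, a replicate block, 6 libraries alone and each library left out. Scripts were tested on simulated data. The study describes biological replicates, but the labels do not tie libraries to separate cultures, so p-values cover only the spread between these libraries. Library totals of 111 to 152 M counts limit only genes with few counts, such as Pdgfb. PCR copies were not marked by molecular identifiers.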

Additional observations from a re-analysis of the deposited data

How the results depend on the processing

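Of 810 values recomputed under the alternatives, 771 kept their direction and side of the threshold or stayed within 1.5 times for a count, and 0 reversed. The falls of Pdgfa and Pdgfd and the rise of Pdgfc in QKI knockdown passed under every alternative run. The cause of the changes below was not tested. In RBPMS knockdown the authors' normalised table with a pseudocount of 1 gave 3 members past the threshold in place of 5, with Pdgfb at −0.97 and Pdgfrb at 0.20 on the log2 scale (0.20 also with a pseudocount of 10), and members past the 2-fold rule numbered 1 in place of 2 in both. Leaving out 1 library each moved Pdgfb there between −1.23 and −0.99 and Pdgfra between −0.29 and −0.031. In RBFOX2 knockdown 6 members passed without a filter on low counts and 5 without control 3, in place of 3. Pdgfb passed without the filter (−0.81), in the 6 libraries alone (−0.80) and with halved counts (−0.79). Pdgfd passed without the filter (0.40) and ranged from 0.20 to 0.70 with 1 library left out. Pdgfrb passed with library totals only (0.18) and without the filter (0.11), and ranged from 0.078 to 0.21. Pdgfb was not tested where a mean of 200 counts was required. Same-numbered libraries did not deviate together (r from −0.34 to 0.25 over 18 pairs, above 0.1 in 4), so the numbers were not taken as pairs. With the replicate number as a block 5, 3 and 6 members passed in RBPMS, RBFOX2 and QKI knockdown, Pdgfa in QKI knockdown was at −1.88, and the block changed no call for a member.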

Other observations

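The closest relatives of the PDGF receptors, the class III receptor tyrosine kinases, and their ligands also moved. Csf1, the gene of the macrophage growth factor CSF-1, was at 285 ± 15.3 CPM (SD, n = 3) in control, 456 ± 24.5 in RBPMS knockdown, 397 ± 5.01 in RBFOX2 knockdown and 135 ± 7.01 in QKI knockdown. Its log2 fold changes were 0.68, 0.48 and −1.08, with edgeR adjusted p of 1.41e-09, 1.07e-07 and 1.75e-12. Kitlg, the gene of stem cell factor, had a mean of 141 CPM in the control libraries, and QKI depletion brought it to 64.9 ± 2.26 CPM (log2 fold change −1.12, edgeR adjusted p 8.83e-14). It did not pass in RBPMS knockdown (0.054, adjusted p 0.243). Flt3lg rose by 0.17, 0.37 and 0.67 on the log2 scale.

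Csf1r, the receptor of CSF-1 and a gene of monocytes and macrophages, had 50 to 58 counts in control libraries and 379 to 550 after QKI depletion (log2 fold change 3.17, edgeR adjusted p 8.94e-11). It was also higher in RBPMS and RBFOX2 knockdown, with 88 to 138 and 76 to 128 counts. It was named after its values were seen. Csf1r is also 1 of the 4 leukocyte markers, whose sum lay at 1.46 to 1.56 CPM in control and 5.43 to 5.96 CPM in the QKI group. The sum was 2.01 to 2.46 CPM in the RBPMS group and 1.69 to 2.34 CPM in the RBFOX2 group. Of the others Cd68 had means of 1.04 and 1.98 CPM in control and the QKI group. Ptprc, the pan-leukocyte gene, was at 0.0054 and 0.016 CPM, with at most 2 counts in any library of these groups. Itgam went the other way, at 0.048 and 0.026 CPM, with at most 12 and 6 counts. Kit and Flt3 had at most 8 and 12 counts in any library and were not tested.

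The pericyte markers, of which Cspg4 and Notch3 made up nearly all of the sum, lay at 443 to 484 CPM in control, 440 to 536 CPM in the RBPMS group, 541 to 545 CPM in the RBFOX2 group and 211 to 218 CPM in the QKI group. Notch3, a Notch receptor of mural cells, had means of 75.6 CPM in control and 14.1, 26.6 and 5.82 CPM after depletion of RBPMS, RBFOX2 and QKI (edgeR adjusted p of 1.32e-09, 2.58e-07 and 6.61e-12). Cspg4, which encodes NG2, changed by 0.34, 0.42 and −0.89. Abcc9, the third marker tested, had 6 to 15 counts in control and passed higher in all 3 knockdowns (log2 fold changes of 3.01, 2.55 and 1.78). The sign of the Cspg4 change was that of Pdgfrb in RBPMS and QKI knockdown, and the Pdgfrb change did not pass in RBFOX2 knockdown. The epithelial markers summed to 29.5 to 31.7 CPM in control and 72.0 to 73.9 CPM in RBFOX2 knockdown, mostly Krt8. Their sum was 36.3 to 44.2 CPM in RBPMS and 32.3 to 34.2 CPM in QKI knockdown. In QKI knockdown Epcam and Cdh1 were higher, at means of 0.368 and 0.391 CPM against 0.059 and 0.082 CPM in control. Krt18 had at most 8 counts in any library.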
